A study of Mus musculus with 49 samples.

Results

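Lesions left by Cas9 with sgRNA3 were compared with those left by Cas9 with sgRNA2, both without a repair template, at the same integrated reporters (IRs) of a pool of mouse embryonic stem (mES) cells. An IR entered the comparison if it had at least 30 reads with each guide, which held for 1407 of the 3385 IRs in the tables of these guides, out of 3568 IRs in the whole series. Where a table held several entries for an IR, the entry with most reads was taken. The reporters came from TRIP, in which barcoded piggyBac transposons insert a reporter gene at many places of the genome and the barcode tells the copies apart. The study asked how the guide and the integration site affect the frequency and kind of Cas9-induced mutations.

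All cells were EBRTcH3 mES cells that express the tetracycline-controlled transactivator from the ROSA26 promoter. In the pool, each EGFP reporter was driven by 1 of 7 promoters (CMV, cMyc, Hoxb1, Nanog, Oct4, p53 or PGK). Both groups received a plasmid with SpCas9, the guide and mCherry and were sorted for mCherry, and neither received the single-stranded oligonucleotide (ssODN) that served as knock-in template in other assays. The sgRNA3 group and the sgRNA2 group had 12 libraries each, which the authors merged in 1 table per guide. There is thus no spread between replicates and no test, and SDs are over IRs. The pool was grown from a limited number of founder cells with many IRs in each, so IRs are not independent of each other, and which IRs share a founder was not analysed here. The library names carry numbers whose meaning is not stated. The number of the sgRNA3 libraries differs from that of the sgRNA2 libraries, so guide and experiment cannot be told apart. A further 5 pool assays with sgRNA2 and ssODN and a clonal cell line with 36 PGK-driven IRs, cut with the same guides, are used beside this comparison. The first of the 4 additional experiments has a library number of its own, and the other 4 assays with ssODN share theirs with sgRNA2 without ssODN. The labels give the ssODN as 1 µM in the third and 8 µM in the fourth additional experiment and no concentration for the others, so these assays are not plain repeats of each other.

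Cas9 cuts both DNA strands a few bases upstream of the protospacer adjacent motif (PAM). The break is mostly rejoined by non-homologous end joining, and an exact repair restores the target, which can be cut again. Inexact repair leaves a deletion, an insertion or a mixture of changes (a complex lesion). PiggyBac integrates at the tetranucleotide TTAA, and this sequence was present at the mapped site of 1365 of the 1407 IRs (97.0%) in the mm9 genome.

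The guides target different stretches of the reporter near the barcode, and their sequences are shown because the inserted bases are read against them. The capital letter marks nucleotide 4 upstream of the PAM.
sgRNA2: cgccgggatcactctcGgca
sgRNA3: agtgtcacctaaatcgTatg
The PAM that follows is TGG for sgRNA2 and CGG for sgRNA3, and the GC content is 70% and 40%. The pool tables give the class of a lesion without its bases, but the cell line lists the bases of each read. There, 94.2% of insertions with sgRNA3 and 73.9% of those with sgRNA2 were of a single base. This base was T in 97.9% of 50320 reads with sgRNA3 (95% Wilson interval 97.8 to 98.0) and G in 73.2% of 6550 reads with sgRNA2 (72.1 to 74.3). Both are the nucleotide in capitals of the respective guide. With sgRNA2, nucleotide 3 upstream of the PAM is a G as well, so nucleotides 3 and 4 cannot be told apart there, while sgRNA3 has an A at nucleotide 3. All Wilson intervals cover counting error only, and the tables do not state how the unique identifiers of the reads entered the counts.

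The sgRNA3 table held 769666 reads at 3238 IRs and that of sgRNA2 held 2021831 reads at 3109 IRs. Of these, 686595 and 1979471 reads belonged to the chosen entries of the 1407 IRs. Reads were spread unevenly, from 30 to 11575 reads an IR with sgRNA3 (median 132) and from 30 to 132369 with sgRNA2 (median 70). The median IR had 73 mutated reads with sgRNA3 and 16 with sgRNA2, so that sgRNA2 limits the precision of most comparisons of lesion shares.

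Cas9 with sgRNA3 mutated nearly every IR more often than Cas9 with sgRNA2. Mutation frequency, the percentage of reads with a deletion, insertion or complex lesion, was 59.5% ± 34.4 (SD, 1407 IRs) with sgRNA3 and 30.2% ± 28.0 with sgRNA2. The difference of 29.3 percentage points had an SD of 18.1 over IRs, with 1369 IRs higher, 30 lower and 8 equal. The Wilson intervals of the guides did not overlap at 81.5% of IRs, in each case with sgRNA3 higher. For insertion frequency, intervals were apart with sgRNA3 above sgRNA2 at 72.6% of IRs, and at 0 IRs with sgRNA3 below. For deletion frequency, sgRNA3 was above sgRNA2 in this way at 35.5% of IRs and below it at 1.56%, which is 22 IRs. Mean deletion frequency was 36.2% ± 23.4 with sgRNA3 and 24.9% ± 23.1 with sgRNA2, with 1134 IRs higher, 232 lower and 41 equal. Complex lesions had a lower mean with sgRNA3, at 1.27% ± 1.66 of reads against 2.02% ± 3.14 with sgRNA2, with 423 IRs higher, 572 lower and 412 equal. With reads pooled over IRs, the difference in mutation frequency was 66.2 points. Pooled without the 18 IRs with 10000 or more sgRNA2 reads, mutation frequency was 85.03% with sgRNA3 and 16.59% with sgRNA2.

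Among mutated reads, insertions took a much larger part with sgRNA3, and deletions and complex lesions a smaller one. These shares were compared at the 607 IRs with at least 20 mutated reads with each guide, where mutation frequency was 85.1% with sgRNA3 and 54.7% with sgRNA2. Insertions made up 35.8% ± 9.18 (SD, 607 IRs) of mutated reads with sgRNA3 and 11.1% ± 6.97 with sgRNA2. The middle 50 percent of IRs lay between 29.4% and 41.0% with sgRNA3 and between 6.09% and 15.1% with sgRNA2. The difference was 24.7 points (SD over IRs 10.7), with 601 IRs higher, 5 lower and 1 equal. Intervals did not overlap at 77.1% of IRs, each time with sgRNA3 higher.

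Deletions made up 62.0% ± 9.29 of mutated reads with sgRNA3 and 82.0% ± 8.67 with sgRNA2. They were lower with sgRNA3 at 587 IRs and higher at 18, and intervals did not overlap at 59.8% of IRs, each with sgRNA3 lower. Complex lesions made up 2.17% ± 1.65 and 6.85% ± 5.73, lower with sgRNA3 at 469 IRs and higher at 112, with intervals apart at 32.1%. Counted over all mutated reads of these IRs, there were 2.04 deletions for each insertion with sgRNA3 and 6.14 with sgRNA2. Insertions outnumbered deletions at 58 of the 607 IRs with sgRNA3 and at 0 with sgRNA2. As a percentage of all reads, deletions had a higher mean with sgRNA3 over the 1407 IRs, as given above.

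The 6 IRs at which the insertion share was not higher with sgRNA3 were looked up after their values were seen. In the order of the size of the drop, they were a p53 IR at chr4:61679831 (20.8% with sgRNA3, 33.3% with sgRNA2), a Hoxb1 IR at chr6:56401319 (19.9% and 25.0%) and a Nanog IR at chr12:4558669 (29.8% and 34.8%). A p53 IR at chr8:101120826 had 21.2% and 23.3%, a Nanog IR at chr7:13420580 had 23.5% and 25.0%, and an Oct4 IR at chr12:53649431 had 34.8% with both. All 6 had between 20 and 30 mutated reads with the guide that had fewer, and at none were the Wilson intervals apart.

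**Figure D1:**
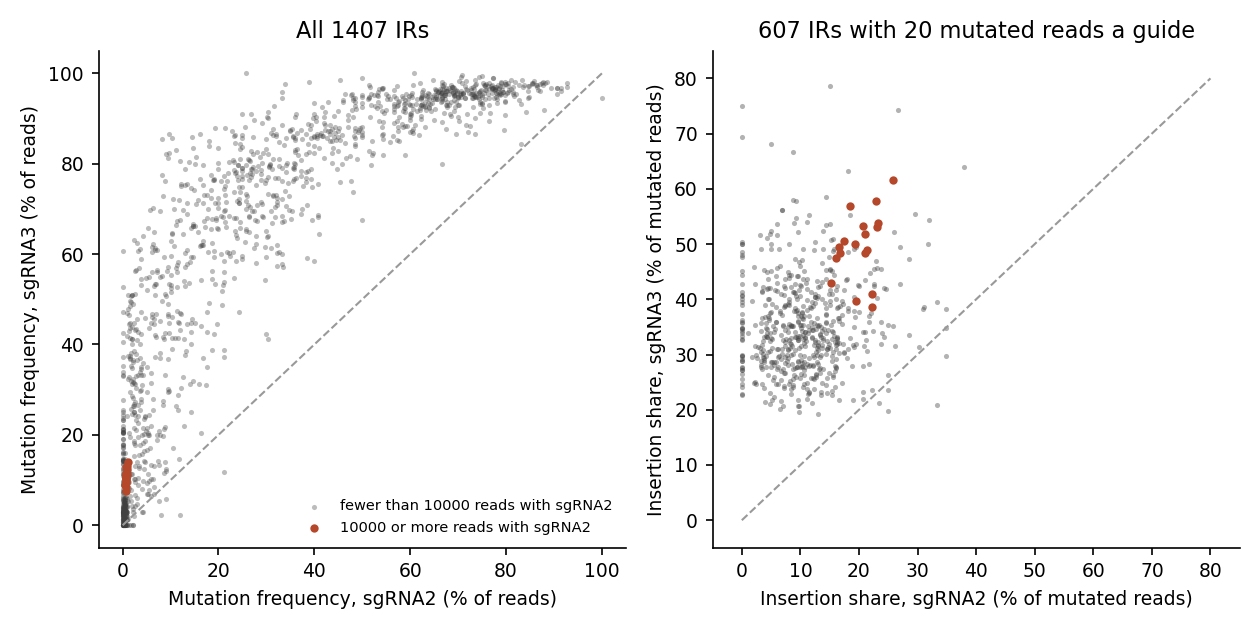
Each point is an IR, with the value for sgRNA2 on the horizontal and for sgRNA3 on the vertical axis, for mutation frequency in % of reads (left, 1407 IRs) and insertion share in % of mutated reads (right, 607 IRs), and the dashed line marks equal values. Points lie above the line for 1369 and 601 IRs, and the 18 IRs with 10000 or more sgRNA2 reads (red) have low mutation frequency and high insertion shares with both guides.

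With sgRNA3, the insertion share was lower at IRs of higher mutation frequency. IRs with at least 20 mutated reads with sgRNA3 were placed in 5 bins of their own mutation frequency, each 20 points wide. From the lowest to the highest bin, the mean insertion share was 47.0% (28 IRs), 43.9% (56), 42.6% (127), 38.3% (247) and 34.6% (576). The SD over IRs within a bin went from 16.1 to 8.02 in the same order. The deletion share went from 48.7% to 63.1%, and the complex share was 4.29%, 3.14%, 2.03%, 1.70% and 2.24%. Across these 1034 IRs, insertion share and mutation frequency had a Pearson's r of -0.347 and a Spearman's rho of -0.324, a description in which both come from the same reads. The complex share had no steady direction, with an r of -0.0748 and a rho of 0.208.

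The lowest sgRNA3 bin is set by abundant IRs, since few others reach 20 mutated reads there. Without IRs with 1000 or more sgRNA2 reads, a choice made after seeing the data, it held 7 IRs and the difference between the top and the bottom bin shrank from -12.4 to -4.75 points. The counting interval of the latter, -10.8 to 1.34, includes 0. Among the 898 IRs with fewer than 1000 sgRNA3 reads, r was -0.267.

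With sgRNA2, the share had no steady order over the bins. The bin means of the insertion share were 17.7% (51 IRs), 10.1% (112), 9.76% (134), 10.8% (260) and 12.0% (52), so only the lowest bin stood apart. In that bin 41 of the 51 IRs had 1000 or more reads. The deletion share was 73.8% in the lowest bin, highest in the middle bin at 84.8% and 79.0% in the top bin. The complex share was 8.44%, 5.86%, 5.41%, 7.28% and 8.99%. Across the 609 IRs, r between insertion share and mutation frequency was -0.126 and rho -0.00108, and among the 567 IRs with fewer than 1000 reads r was 0.0709. Among the 152 IRs with at least 100 mutated reads with sgRNA2, r was -0.585 and rho -0.212, against -0.335 and -0.189 among the 615 such IRs with sgRNA3. Of the 152, 133 had fewer than 1000 sgRNA2 reads, and r among these 133 alone was not computed. With bins of equal numbers of IRs, the top bin was lower by a difference of -1.41 points in place of -5.71. Without IRs with 1000 or more sgRNA2 reads it was -2.53 points, with 10 IRs in the lowest bin and a counting interval that includes 0 (-6.91 to 1.85).

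**Figure D2:**
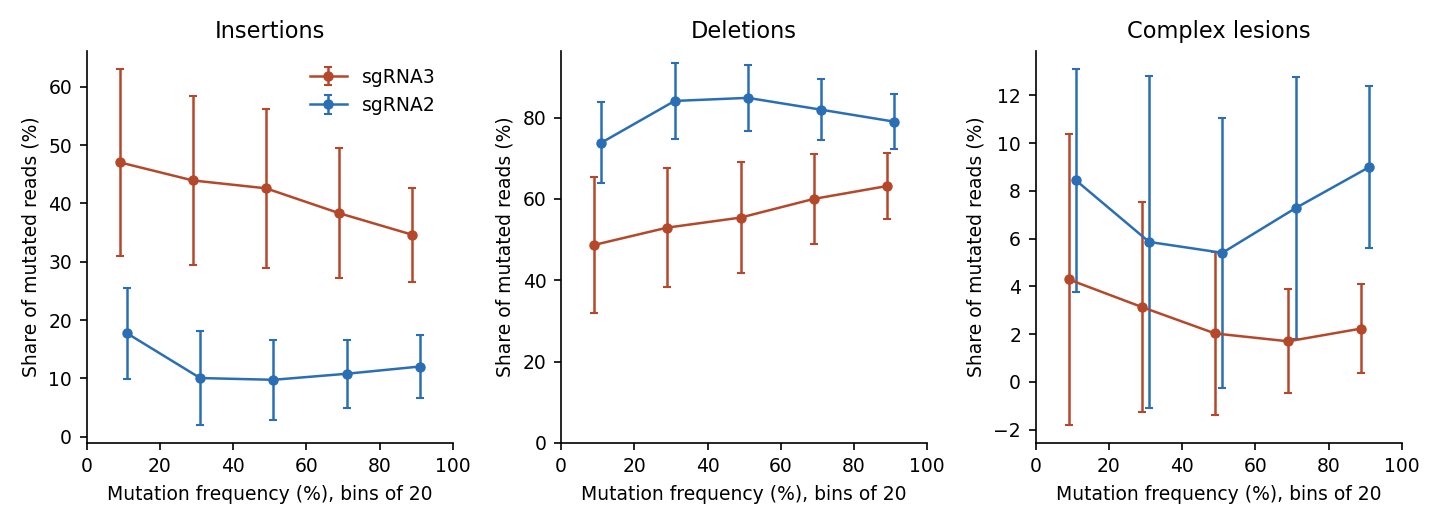
Mean share of mutated reads in % (points) with the SD over IRs (bars) for insertions, deletions and complex lesions, in 5 bins of mutation frequency with the same guide, for sgRNA3 (red) and sgRNA2 (blue). In every bin the insertion share was higher and the deletion and complex shares were lower with sgRNA3.

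The guides differed most at IRs of intermediate to high mutation frequency. With all 1407 IRs grouped by mutation frequency with sgRNA3, a value that is itself part of the difference, sgRNA3 exceeded sgRNA2 by 1.55 points under 5% (158 IRs) and by 8.96 points from 5% to 20% (146). The difference was 23.8 points from 20% to 40% (131 IRs), 38.9 from 40% to 60% (147) and 46.8 from 60% to 80% (249). It was 44.4 points from 80% to 90% (188 IRs), 31.5 from 90% to 95% (176) and 24.9 above 95% (212). As a ratio of means, it was 5.67 between 20% and 40% and 1.35 above 95%.

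Insertions and deletions shared the difference unequally along this range. Insertions made up 50.6% of it between 40% and 60%, and 96.7% above 95%. In this last group, deletions were found in 62.2% of reads with sgRNA3 and 58.2% with sgRNA2, and deletion frequency was lower with sgRNA3 at 80 of the 212 IRs. Insertion frequency there was 32.0% with sgRNA3 and 7.87% with sgRNA2, and complex lesions were at 2.43% and 5.55%. Complex lesions were less frequent with sgRNA3 in the 4 groups above 60% and more frequent in the 4 groups under 60%, such as 1.11% against 0.548% between 40% and 60%.

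**Figure D3:**
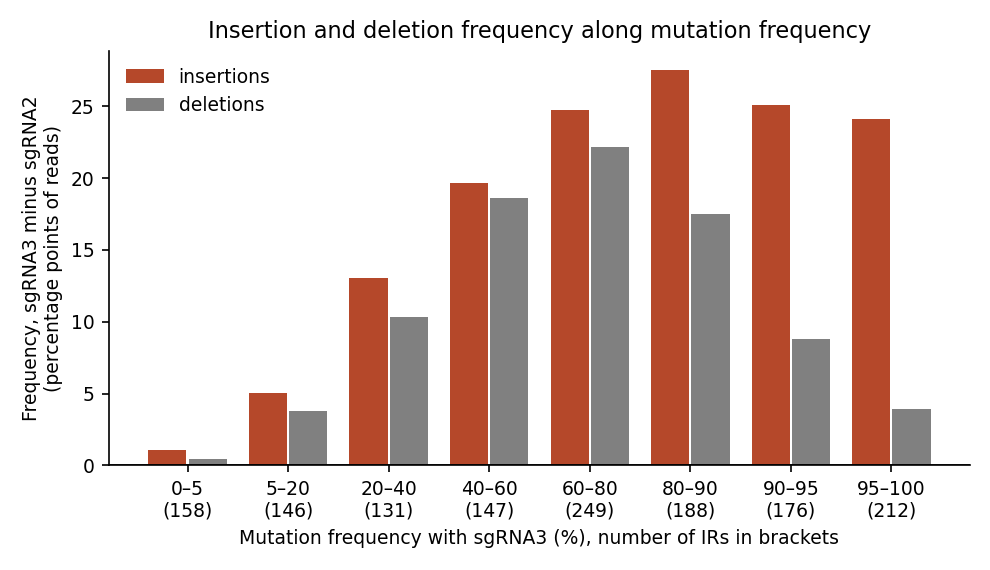
Mean difference in insertion (red) and deletion (grey) frequency between the guides, in percentage points of reads, for IRs grouped by mutation frequency with sgRNA3, with the number of IRs in brackets. The insertion difference was 27.5 points at 80% to 90% and 24.1 above 95%, while the deletion difference went from 22.2 points at 60% to 80% down to 3.94 above 95%.

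The gap in insertion share was present at each level of mutation frequency. In bins of the mean of both guides, it was 30.1 points (32 IRs, all with 1000 or more reads with sgRNA2), 29.4 (14), 27.3 (97), 25.7 (220) and 21.9 (244) from the lowest to the highest bin. A further comparison used IRs whose mutation frequencies differed by at most 10 points between the guides. At the 20 such IRs above 50% with both guides, mutation frequency was 94.9% and 88.6%. The insertion share there was 32.3% ± 4.23 with sgRNA3 and 13.7% ± 6.90 with sgRNA2, higher at 20 of 20 IRs. At the 10 such IRs under 50%, mutation frequency was 8.89% and 0.687%, close in points but not as a ratio. The shares there were 51.3% ± 7.95 and 18.2% ± 4.48, higher with sgRNA3 at 10 of 10.

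The SD of the insertion share over the 607 IRs was 9.18 points with sgRNA3, where binomial counting of independent reads would give 3.48, and 6.97 with sgRNA2, where it would give 4.54. At the 152 IRs with at least 100 mutated reads with each guide, the SD was 8.55 with sgRNA3 and 4.66 with sgRNA2. With sgRNA3, which has a single merged pool assay, how much of this spread is a lasting difference between IRs was not tested. For sgRNA2, the values of the IRs in 6 assays are compared below. Between the guides, the insertion shares of the 607 IRs had an r of 0.142. At the 152 deeper IRs r was 0.546, but 0.124 at the 133 of them with fewer than 1000 sgRNA2 reads.

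The difference in insertion share between the guides was larger than that between assays with the same guide. Of the 607 IRs, those with 20 mutated reads in the assay were used for each, with knock-in reads left out. The insertion share with sgRNA2 and ssODN was 11.0% ± 6.21 (SD, 584 IRs), against 11.1% without ssODN at all 607. In the 4 additional experiments with sgRNA2 and ssODN it was 18.5% ± 5.45 (599 IRs), 12.8% ± 5.54 (604), 10.5% ± 8.31 (552) and 10.8% ± 6.31 (574). The nearest was the first additional experiment, which sgRNA3 exceeded by 17.3 points at the same 599 IRs. This is the sgRNA2 assay with a library number of its own, and the other 5 ran from 10.5% to 12.8%. What sets it apart was not tested. Mutation frequency over the 6 sgRNA2 assays was 46.3% to 66.9%, against 85.1% with sgRNA3, and the gap of 18.2 points to the nearest was no larger than that range. At the 525 IRs with 20 mutated reads in all 7 assays, the sgRNA3 share was above all 6 sgRNA2 values at 501 (95.4%). The deletion share, 71.4% to 82.0% over the sgRNA2 assays, was lower with sgRNA3 than in all 6 at 372 IRs (70.9%). The complex share was 6.85% to 14.3% with sgRNA2 and 2.17% with sgRNA3. Which IRs had high shares was barely shared between sgRNA2 assays, with r from 0.0351 to 0.258 over 15 pairs. Counting alone would give an SD over IRs of 2.96 to 4.54 points in these assays, and the r values were not corrected for it. The 6 sgRNA2 values of an IR had a mean SD of 5.97 points, which includes the differences between assay means. The SD over IRs of the mean of these 6 values was 3.13. This mean had an r of 0.328 with the sgRNA3 share (rho 0.254), and the 5 single assays with ssODN had an r of 0.0937 to 0.286 with it.

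In the clonal cell line, where all 36 IRs sit in the same cells and had at least 870 mutated reads, the insertion share was 39.7% ± 7.44 (SD over IRs) with sgRNA3 and 10.4% ± 3.22 with sgRNA2. The difference was 29.3 ± 5.16 points, from 20.8 to 43.1, and positive at 36 of 36 IRs. The deletion share differed by -25.9 points and was lower with sgRNA3 at 36 of 36 IRs. Mutation frequency was much closer between the guides there, at 65.8% and 53.0%. The paper transfected the cell line by another method than the pool, with mCherry on a separate plasmid. It describes unique identifiers for the pool only. Each guide had a single library in the cell line, with different library numbers, so guide and experiment cannot be told apart there either. The 36 IRs are thus not replicates of the guides.

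**Figure D4:**
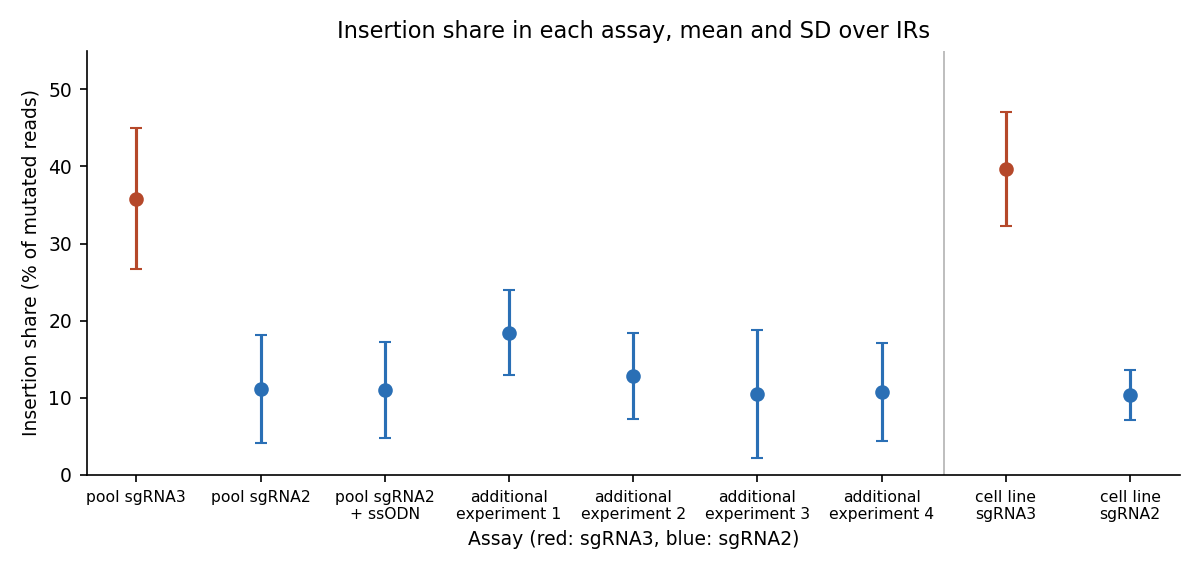
Mean insertion share in % of mutated reads (points) with the SD over IRs (bars) in the 7 pool assays (552 to 607 IRs) and, right of the line, in the cell line, with sgRNA3 in red and sgRNA2 in blue. sgRNA3 is at 35.8% and 39.7%, and the sgRNA2 assays run from 10.4% to 18.5%.

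At the 607 IRs with 20 mutated reads with each guide, the difference in insertion share was positive for every promoter and chromosome. It was smallest for the 88 p53 IRs, with 32.5% and 11.7% for sgRNA3 and sgRNA2 and a difference of 20.8 points. Hoxb1, a retinoic acid-inducible homeobox gene whose promoter drives 213 of these 607 IRs, had 35.1% and 10.8%. For the promoters of the pluripotency factors Nanog (83 IRs) and Oct4 (82), the shares were 34.9% and 11.0%, and 38.6% and 12.5%. The viral CMV promoter (73 IRs) had 37.3% and 10.5%, and cMyc (56) 37.9% and 10.0%. PGK, the promoter of a housekeeping glycolysis gene, had 42.0% and 13.4% at only 12 IRs, the largest difference with 28.5 points. SDs over the IRs of a promoter were 6.47 to 9.65 with sgRNA3. Over the 20 chromosomes, the difference was 21.3 to 28.6 points. By the GENCODE annotation it was 25.7 points at 304 IRs in a gene and 23.7 at 303 outside genes, and it was 25.0 at the 32 IRs in exons.

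With sgRNA3 the insertion share was higher at IRs with higher expression. Expression was measured in the pool before Cas9 as the log2 of barcode counts in cDNA over genomic DNA, and IRs were put in quartiles of it. No cDNA count was found for 133 of the 352 IRs in the lowest quartile and 13 of the 351 in the second, so that the count of 1 added to each and the genomic DNA count set their value. From the lowest to the highest quartile, the insertion share with sgRNA3 was 31.1% ± 7.83 (SD, 152 IRs), 34.0% ± 8.46 (147), 37.8% ± 8.49 (148) and 40.3% ± 9.07 (160). With sgRNA2 it was 10.4% ± 6.65, 10.7% ± 6.59, 10.8% ± 7.21 and 12.5% ± 7.26 at the same IRs. The difference between the guides accordingly went from 20.7 to 23.2, 27.0 and 27.8 points. The SDs of neighbouring quartiles overlap widely for single IRs.

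Across the 607 IRs, which share libraries and in part founder cells, r between insertion share and log2 expression was 0.392 with sgRNA3 (rho 0.438) and 0.113 with sgRNA2 (rho 0.111). In the other 5 sgRNA2 assays the top quartile exceeded the bottom one by 0.220 to 2.43 points, against 9.21 points with sgRNA3 and 2.15 with sgRNA2 without ssODN. These points stand on different bases, since the lowest quartile was at 31.1% with sgRNA3 and at 10.4% with sgRNA2 without ssODN. At all 1034 IRs with 20 mutated reads with sgRNA3, r was 0.258. Within promoters it was positive in 7 of 7, from 0.170 at Nanog IRs to 0.435 at cMyc IRs, with 19 PGK IRs the fewest. It was 0.405 among the 576 IRs with mutation frequency of 80% or more with sgRNA3 and 0.200 among the 458 IRs under 80%. Of the 607 IRs, 474 and 133 were in these groups, and r was 0.442 and 0.434. Mutation frequency itself had an r with expression of 0.0144 with sgRNA3 and 0.0471 with sgRNA2 (1406 IRs).

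**Figure D5:**
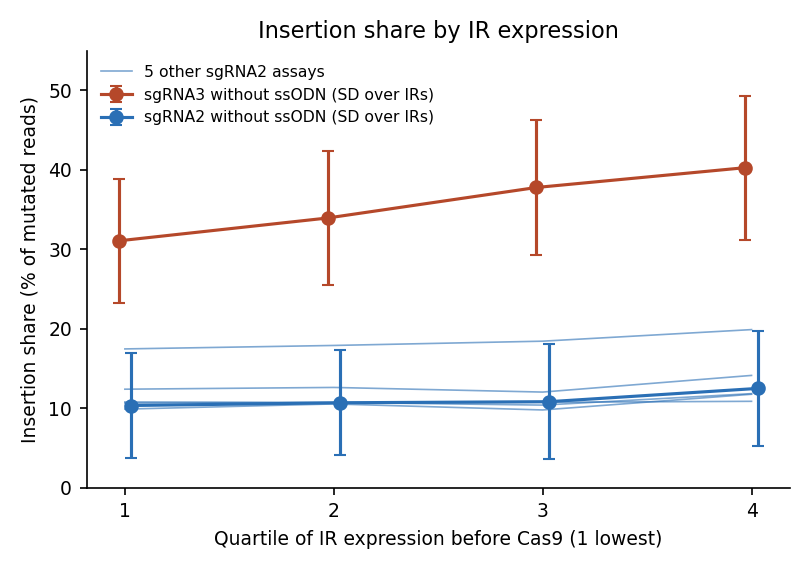
Mean insertion share in % of mutated reads by quartile of IR expression before Cas9, with SD over IRs as bars for sgRNA3 (red) and sgRNA2 (blue) without ssODN, and the means of the 5 other sgRNA2 assays as thin lines. The sgRNA3 mean goes from 31.1% to 40.3%, while sgRNA2 without ssODN goes from 10.4% to 12.5%.

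A few IRs held most of the sgRNA2 reads. The 18 IRs with 10000 or more reads with sgRNA2 took 83.9% of the sgRNA2 reads of the 1407 IRs, 20.9% of the sgRNA3 reads and 1.43% of the genomic DNA counts before Cas9. In the assays with sgRNA2 and ssODN they took 23.7% of reads in the first additional experiment and 71.2% to 83.0% in the other 4. Their mutation frequency lay in a narrow range, from 0.587% to 1.09% with sgRNA2 and from 7.54% to 14.0% with sgRNA3. The mean was 0.762% with sgRNA2 and 10.7% with sgRNA3, and with sgRNA2 and ssODN it was 6.79% in the first additional experiment and 1.15% to 2.31% in the other 4 assays. In reads and in mutation frequency of these IRs, the first additional experiment was thus nearer to sgRNA3 than to sgRNA2 without ssODN, and guide and experiment cannot be told apart for them. Their insertion share was 20.2% ± 2.94 with sgRNA2 and 49.7% ± 6.22 with sgRNA3, against 10.9% ± 6.88 and 35.4% ± 8.93 at the 589 other IRs with 20 mutated reads with each guide. The insertion share was higher with sgRNA3 at 18 of these 18 IRs and insertions outnumbered deletions at 12. Whether these 18 IRs share a founder cell was not analysed, so they may not be separate cases. The part of their abundance in these values was not tested. The 141 IRs with 488 or more sgRNA2 reads held 93.4% of sgRNA2 reads and 4.03% of genomic DNA counts, with a mean mutation frequency of 4.36% and 16.3% with sgRNA2 and sgRNA3. At the 141 IRs with 201 to 487 sgRNA2 reads it was 42.5% and 57.2%.

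The 6 IRs with the most reads with both guides belong to this set. They are a Hoxb1 IR at chr7:81011653, a p53 IR at chr17:45334775, a Hoxb1 IR at chr5:87786205, an Oct4 IR at chr8:85613189, an Oct4 IR at chr4:32236512 and a cMyc IR at chr7:38931623. Only the Oct4 IR on chromosome 8 lies in a gene, in an untranslated exon of Rnf150, which encodes a RING finger protein. With 9250 to 10890 sgRNA3 reads and 102307 to 132369 sgRNA2 reads each, they had 757 to 1053 mutated reads with sgRNA3. The Hoxb1 IR on chromosome 7 had a mutation frequency of 9.67% with sgRNA3 (interval 9.13 to 10.2) and 0.754% with sgRNA2 (0.709 to 0.802). Its insertion share was 43.0% (40.1 to 46.0) and 15.2% (13.1 to 17.6). The Oct4 IR on chromosome 4 had the highest insertion share with sgRNA3 of the 6, 57.9% (54.6 to 61.1), against 23.0% with sgRNA2 (20.3 to 25.9). The p53 IR had 50.6% and 17.5%, the Hoxb1 IR on chromosome 5 had 49.0% and 21.3%, and the Oct4 IR on chromosome 8 had 53.0% and 23.1%. The intervals of the guides without ssODN were apart at all 6. With sgRNA2 and ssODN, the mutation frequency of the 6 was 5.22% to 7.10% in the first additional experiment and 0.966% to 2.34% in the other 4 assays, so the gap to sgRNA3 depended on the sgRNA2 assay.

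Among the 144 IRs considered with at least 100 mutated reads with each guide, the insertion share was higher with sgRNA3 at 144, by 6.22 to 38.5 points (mean 21.1, SD 7.20). The 5 with the largest and the 5 with the smallest difference are named, and the plus strand of mm9 around the integration is shown for 9 of them, since the sites differ between IRs while the guide target does not. The TTAA of the integration is in capitals.
cMyc IR, chr7:38931609-38931638: gaatctaatcaagTTAAttccctgaaaata
Oct4 IR, chr15:80629535-80629564: gaaagaggtttttTTAAaaacacaagcctc
Oct4 IR, chr17:26199467-26199496: tatacacagacacTTAAacccaaggctagg
Oct4 IR, chr14:22340636-22340665: gtttagttcaattTTAAgcagattccttag
Hoxb1 IR, chr8:123192719-123192748: tacaagtcaatttTTAAaataaaactcagt
p53 IR, chr1:109736889-109736918: ctaactgctatggTTAAccagagttagggg
Hoxb1 IR, chrX:131353173-131353202: aaggtcttgaaatTTAAataactaccaaca
Nanog IR, chr14:77148755-77148784: tttaattttttgcTTAActgtgacctcttc
Hoxb1 IR, chr10:122248119-122248148: tccgggctttgtaTTAAaagcatgctttat
The first 5 lines are the IRs with the largest difference, the last 4 belong to those with the smallest.

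The cMyc IR on chromosome 7, one of the 6 above, had the largest difference, with 57.0% with sgRNA3 (interval 53.7 to 60.1) and 18.5% with sgRNA2 (15.6 to 21.7). It lies outside genes, and the next 4 lie in introns, as did 272 of the 607 IRs with 20 mutated reads with each guide. The mean difference was 25.8 points at these 272 IRs and 23.7 at the 303 outside genes. The Oct4 IR on chromosome 15, in Tnrc6b (chr15:80590016-80771516), whose product acts in silencing by microRNAs, had 44.9% (43.0 to 46.8) and 7.81% (4.79 to 12.5). The Oct4 IR on chromosome 17, in Rab11fip3, an effector of the GTPase Rab11, had 48.9% and 12.3%. The Oct4 IR on chromosome 14, in Myst4, which encodes a histone acetyltransferase, had 41.7% (39.6 to 43.9) and 5.71% (3.13 to 10.2). The Hoxb1 IR on chromosome 8 lies in an intron of Cox4i1, a subunit of cytochrome c oxidase, which the predicted gene Gm20388 overlaps, and had 44.3% and 8.45%. At these 4 intronic IRs mutation frequency was 92.6% to 98.4% with sgRNA3 and 63.2% to 73.1% with sgRNA2. Over the 5 sgRNA2 assays with ssODN, the insertion share of the 5 IRs with the largest difference was 2.78% to 27.1%. It was 4.95% to 18.1% at the Myst4 IR. All these values were under those with sgRNA3, but the size of the difference depended on the sgRNA2 assay.

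At the other end, the p53 IR on chromosome 1, outside genes, had an insertion share of 19.1% with sgRNA3 (interval 17.5 to 21.0) and 12.9% with sgRNA2 (8.43 to 19.3). The Hoxb1 IR on chromosome X, outside genes, had 24.1% and 15.9%, and the Nanog IR on chromosome 14, outside genes, 23.0% and 14.6%. The Oct4 IR at chr6:15721098, in an untranslated exon of Mdfic, had 22.6% (20.9 to 24.4) and 13.5% (9.70 to 18.6). The Hoxb1 IR on chromosome 10, in an intron of the phosphatase gene Ppm1h, had 27.9% and 18.8%. The intervals of the guides overlapped at these IRs except the Oct4 IR. Over the 5 sgRNA2 assays with ssODN, the insertion share of these 5 IRs was 6.22% to 19.0%, in each case under that with sgRNA3. At the p53 IR it was 6.22% to 18.2%. Mutation frequency at these 5 was 93.7% to 97.3% with sgRNA3 and 67.8% to 82.7% with sgRNA2, a range that overlaps that of the intronic IRs with a large difference. Their log2 expression was -8.87 to -2.94 (median -8.07), against -4.91 to -0.10 (median -2.25) at the 5 IRs with the largest difference, and these ranges overlap.

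Among IRs considered with at least 100 reads with each guide, the 3 with the largest gain in mutation frequency lay in introns, as did 626 of the 1407 IRs. The mean gain of all IRs in introns was 28.0 points, against 30.4 outside genes. A p53 IR at chr4:10448666, in the non-coding transcript 1700123O12Rik, had 86.2% with sgRNA3 (interval 80.2 to 90.6) and 23.2% with sgRNA2 (16.9 to 30.9), a difference of 63.0 points. A Nanog IR at chr13:81624211, in Gpr98, which encodes a very large adhesion G protein-coupled receptor, had 72.1% and 11.9%. A Hoxb1 IR at chr1:95627956, in Thap4, which encodes a THAP-domain protein, had 81.1% and 24.5%. In the 5 sgRNA2 assays with ssODN, mutation frequency at the p53 IR was 28.3% to 58.5%, in each above the value without ssODN. It was 8.84% to 27.4% at the Nanog IR and 23.0% to 49.5% at the Thap4 IR. All these values were under those with sgRNA3, by less than without ssODN in most cases.

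The 3 lowest differences among the IRs considered, with sgRNA3 below sgRNA2, were at IRs without a mutated read with sgRNA3. A Hoxb1 IR at chr6:30841904, in an intron of the coatomer gene Copg2, had 0 of 104 mutated reads, which allows a mutation frequency of up to 2.88%, and 0.862% of 928 reads with sgRNA2. A p53 IR at chr19:26761906, in an intron of Smarca2, an ATPase of SWI/SNF chromatin remodelling complexes, had 0 of 132 reads, which allows up to 2.27%, and 0.249% of 1205 reads. A Nanog IR at chr15:19765531, outside genes, had 0 of 102 reads, which allows up to 2.94%, and 0.231% of 433 reads. At this depth no difference between the guides was detectable at these 3.

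In all, 29 IRs had no mutated read with sgRNA3, 97 had none with sgRNA2 and 8 had none with both. The 29 had 30 to 169 sgRNA3 reads, which allows up to 1.78% at the deepest and up to 10.0% at the shallowest, and their mutation frequency with sgRNA2 was at most 2.11%. The 97 had 30 to 1321 sgRNA2 reads, and their mutation frequency with sgRNA3 was 13.4% on average and at most 60.7%.

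Just inside the minimum, 162 IRs had 30 to 34 reads with the guide that had fewer. Their mutation frequency was 49.0% with sgRNA3 and 19.5% with sgRNA2, a difference of 29.6 points. Just outside, 143 IRs with 25 to 29 reads had 53.0% and 24.2%, a difference of 28.8 points.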

How the data were processed

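Processed tables that the authors deposited were used, without the reads. For the pool, the authors parsed reads for barcode and 16-nucleotide unique identifier, called lesions by semi-global alignment to the reporter, merged the libraries of an assay, and deposited raw counts of reads per barcode and class (wild-type, deletion, insertion, complex and, with ssODN, knock-in), joined to IRs mapped on mm9. The submitters' processing notes name Bowtie2 2.0. For the cell line, the authors deposited each read's barcode, lesion class and changed bases (text values, not counts). For expression, the authors deposited barcode counts in cDNA and genomic DNA (2 replicates each, 1847222 to 2704892 counts). Expression was the log2 ratio of cDNA to genomic DNA after scaling each library to a common total, taking the mean of the replicates and adding 1, at IRs that had 10 or more genomic DNA counts in both replicates. Of the cell line mapping table, 2 count columns from samples of another study were not used.

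Frequencies are percentages of all reads of an IR, and shares are percentages of mutated reads at IRs with at least 20 of them. With 1 merged table a guide there was no test. Calls are non-overlapping 95% Wilson intervals, and a count of 0 allows up to 3 reads of the total. Correlations are across IRs, which are not independent replicates. Genes come from the GENCODE annotation and bases from the genome of the same build. Python 3.11.15, pandas 2.3.3, numpy 2.4.6, scipy 1.17.1 and matplotlib 3.10.9 were used, and the scripts were tested on simulated data.

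By rule, the IRs named were the 6 with the largest smaller-of-both read total, the 5 highest and the 5 lowest in insertion share difference among those with 100 mutated reads with each guide, and the 3 highest and the 3 lowest in mutation frequency difference among those with 100 reads with each guide. The 41 IRs on chromosome 18 were passed over in naming. Alternatives were the minimum of reads (10, 100) and of mutated reads (10, 50), entries summed, reads pooled, medians, complex reads left out, abundant IRs left out, only IRs with 30 reads with sgRNA2 and ssODN, and other bins. The members, lists and rules were chosen with earlier results of these data known.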

Additional observations from a re-analysis of the deposited data

Results flagged for a closer look

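Reads outside the comparison also carried lesions. Further entries of the 1407 IRs, which were not used, held 33636 reads with sgRNA3 and 14483 with sgRNA2. Of these, 67.1% (95% Wilson interval 66.6 to 67.6) were mutated with sgRNA3 and 3.29% (3.01 to 3.59) with sgRNA2, against 69.5% and 3.30% of all reads in the chosen entries. Insertions made up 33.2% and 14.5% of the mutated reads in these entries.

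IRs with 30 reads with only 1 of the guides had a signal as well. The 460 IRs that reached the minimum only with sgRNA3 had a mean mutation frequency of 67.0% with sgRNA3 (SD over IRs 27.8), and the 186 that reached it only with sgRNA2 had 4.40% with sgRNA2 (SD over IRs 8.08). These are different IRs. With their reads with the other guide pooled, the 460 IRs had a mutation frequency of 31.5% with sgRNA2 (7454 reads) and the 186 IRs had 24.5% with sgRNA3 (3492 reads). Why these IRs had few reads with the other guide was not tested.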

How the results depend on the processing

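All 5 results kept their direction under their alternatives, 47 in all, and 29 values moved by more than the counting error of the main value. Correlations were not among these alternatives. With sgRNA2, r between insertion share and mutation frequency was -0.126, but 0.0709 among the 567 IRs with fewer than 1000 reads. The main differences between sgRNA3 and sgRNA2 were 29.3 points in mutation frequency, 24.7 in insertion share and -20.0 in deletion share, and the top bin minus the bottom bin in insertion share was -12.4 points with sgRNA3 and -5.71 with sgRNA2. With at least 100 reads, mutation frequency differed by 23.0 points, insertion share by 23.4 and deletion share by -18.4, and the sgRNA3 bins by -18.3. With reads pooled over IRs, the first 3 were 66.2, 19.2 and -13.5 points. With medians, mutation frequency and insertion share differed by 29.7 and 23.9 points. Without the tenth of IRs with most reads the 3 differences were 30.5, 25.3 and -20.8 points, and without complex reads 29.9, 24.2 and -24.2. With at least 10 mutated reads, the shares differed by 25.7 and -21.2 points. With at least 50, they differed by 22.8 and -17.7 points, and the bins by -15.3 points with sgRNA3 and -8.62 with sgRNA2. With reads pooled in a bin, the bins differed by -18.6 points with sgRNA3 and -8.60 with sgRNA2, and with entries summed by -14.6 with sgRNA3. With sgRNA2, bins of equal numbers of IRs gave -1.41 points and bins by the mean of both guides -8.46. Without IRs with 1000 or more sgRNA2 reads, an alternative chosen after seeing the data, mutation frequency differed by 30.8 points and the bins by -4.75 with sgRNA3 and -2.53 with sgRNA2. The counting intervals of these last 2 values, -10.8 to 1.34 and -6.91 to 1.85, include 0, with 7 and 10 IRs in the lowest bin. Apart from the fewer IRs in it, the cause of these shifts was not tested. The differences between the guides are paired by IR, but no analysis paired by library was possible because the libraries of a guide are merged in 1 table.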
